A study of Homo sapiens with 3 samples.

Results

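Some entries catalogued as microRNAs are thought to be pieces of other abundant RNAs: transfer RNA (tRNA), U2 small nuclear RNA (snRNA) and mitochondrial ribosomal RNA (rRNA). The 6 such entries described here are hsa-miR-4454, hsa-miR-1260a, hsa-miR-1260b, hsa-miR-1973, hsa-miR-1246 and hsa-miR-5100, written below without the species prefix and taken by name from the 2019 human microRNA probes of the array. The cells were MCF12A, a line of human mammary epithelium that is immortal but forms no tumours, grown as a monolayer with horse serum, epidermal growth factor, hydrocortisone, insulin and cholera toxin. The 3 groups were unexposed cells, cells kept with ethanol and cells kept with acetaldehyde, the compound that ethanol is first oxidized to, for 4 weeks in both exposures. The doses are labelled 2.5 mM for ethanol and 1 mM for acetaldehyde among the characteristics but 2.5% and 1% in the treatment protocol, so the dose itself is uncertain and differs between the compounds on either reading. Each group was 1 array, so there is no replicate, no test and no p-value below. Both exposures are compared with the same control array. No array is labelled as coming from the soft agar clone that the protocol mentions.

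Transfer RNAs carry amino acids to the ribosome, and every mature tRNA ends in CCA, a tail added by an enzyme after transcription. Stressed or growing cells cut tRNAs into stable fragments, and the fragments from the 3′ end keep that tail. U2 snRNA is a core RNA of the spliceosome, and the 16S rRNA of mitochondria builds the large subunit of the mitochondrial ribosome. Labelling here started with a poly(A) tail added to RNA 3′ ends, a reaction that can take fragments of other RNAs as well as microRNAs. A probe of this kind thus does not tell which of these it read. In total RNA of a whole culture, a lower signal from fewer cells that hold an RNA and one from less of it per cell cannot be told apart.

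The sequences below are the array's targets, shown because they carry the link to the parent RNAs. They are written 5′ to 3′, with the seed (bases 2 to 8) in capitals. All 6 were identical to the mature sequences of RefSeq (GRCh38.p14).
miR-4454: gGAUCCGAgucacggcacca
miR-1260a: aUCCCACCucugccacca
miR-1260b: aUCCCACCacugccaccau
miR-1973: aCCGUGCAaagguagcaua
miR-1246: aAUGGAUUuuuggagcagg
miR-5100: uUCAGAUCccagcggugccucu

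RefSeq places miR-4454 at chr4:163093607-163093626 (minus strand), miR-1260a at chr14:77266231-77266248 (plus), miR-1260b at chr11:96341447-96341465 (plus), miR-1973 at chr4:116299750-116299768 (plus), miR-1246 at chr2:176601024-176601042 (minus) and miR-5100 at chr10:42997630-42997651 (plus). As background, miR-4454 resembles the 3′ end of histidine tRNA, miR-1260a and miR-1260b that of leucine tRNA, miR-1973 a stretch of the mitochondrial 16S rRNA, and miR-1246 has been described as a piece of U2 snRNA. The sequences of the parent RNAs were not used here, so these origins were not tested. Of the 6 targets, 2 end in CCA, those of miR-4454 and miR-1260a, and that of miR-1260b has 1 base after it. Among all 2019 targets, 42 (2.08%) end in CCA. miR-1260a and miR-1260b share their seed and differ by U9A, counted from the 5′ end, with miR-1260b 1 base longer, so each probe may read the RNA of the other and the pair is not independent. No other pair of the 6 shares a run of more than 6 bases, and no other target on the array has the seed of any of them.

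Detection required a mean spot intensity more than 3 SDs over the median of the 1368 empty spots, and 50% or more of the probe's spots past the same limit. All 6 entries were detected on all 3 arrays, where 775, 347 and 1430 of the 2019 probes were detected with control, ethanol and acetaldehyde. The levels a probe had to exceed were 146, 243 and 98.8. The ratio of an entry's lowest used spot to that level ran from 1.80, for miR-1260a on the ethanol array, to 80.0, for miR-4454 on the acetaldehyde array. The 4 epithelial markers miR-205-5p, miR-200c-3p, miR-141-3p and miR-203a were detected on every array, with a summed signal above the empty spots of 38078, 29421 and 47426. Of 5 blood markers, 0 were detected on the control and ethanol arrays and 2 on the acetaldehyde array, and of 5 mesenchymal markers 2, 2 and 4 were. The detection level was lowest on the acetaldehyde array, and the summed signals of these lists were at most 231 and 584. Of 2 muscle markers 0, 0 and 1 (miR-133a) were detected, with a summed signal of at most 55.6. The part of these lists in the results was not tested. The liver marker miR-122-5p was detected on no array.

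Every probe had 4 spots on each array. A spot whose signal above the empty spots was less than 50% of its probe's median was left out as dark, and 3 such spots belonged to the 6 entries. One was the miR-5100 spot of 274 on the control array, beside 3803, 3495 and 3354. Another was the miR-1260a spot of 98.5 on the ethanol array, beside 437, 495 and 498. The last was the miR-4454 spot of 1461 on the ethanol array, beside 7462, 7379 and 6932. The values below leave these out, so 3 spots stand behind those array values. Levels are log2 intensities after background correction (normexp) and quantile normalization of the 3 arrays, and an error is the SD over spots or spot positions of 1 array per group. It covers printing and reading of spots and not variation between cultures. A difference is that between the means of all used spots of each array, and only its SD is taken over the positions used on both.

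**Figure D1:**
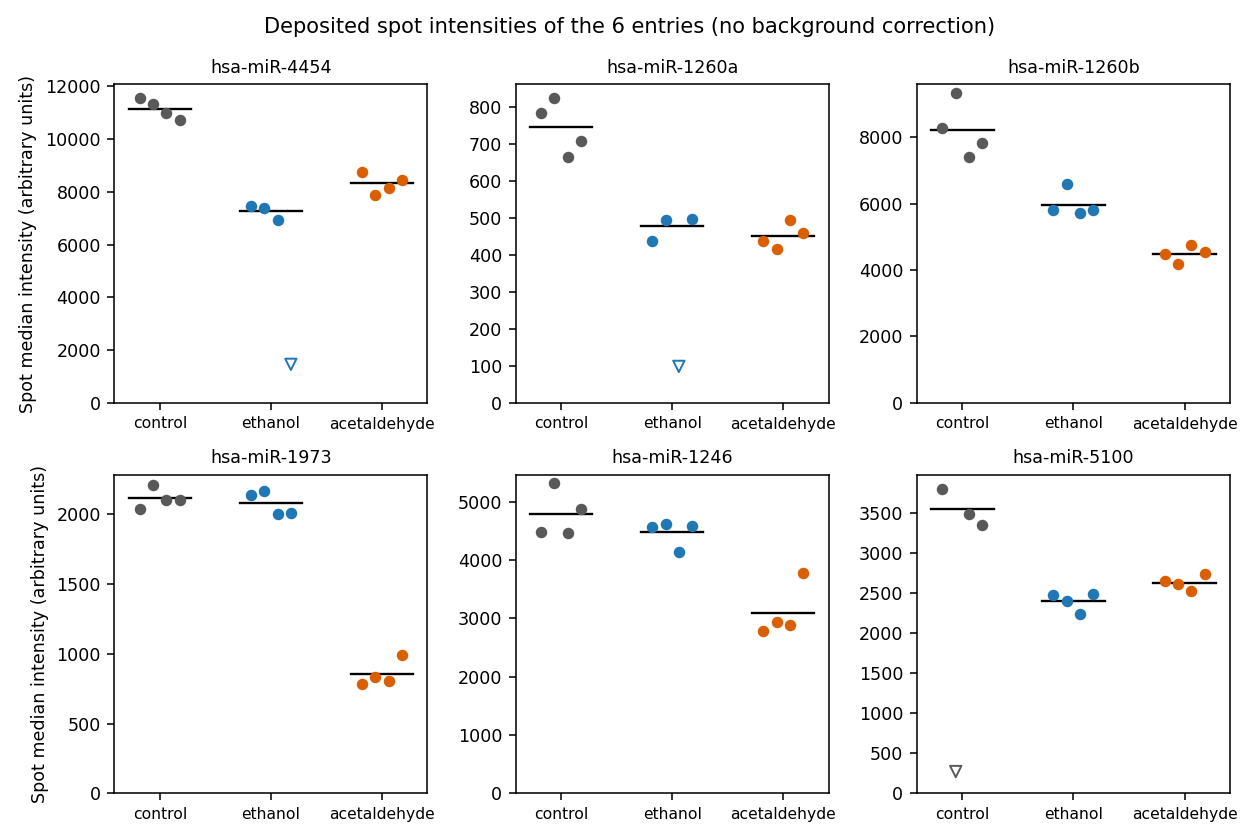
Deposited median intensity of each spot (arbitrary units, linear, from 0) for the 6 entries on the control, ethanol and acetaldehyde arrays; filled points are used spots, open triangles the 3 dark spots and bars the mean of the used spots. The 4 miR-1973 spots of the acetaldehyde array lie between 786 and 992, and those of the other arrays between 1999 and 2210.

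With the dark spots left out, all 6 entries were lower with acetaldehyde than with control, and miR-1973 was the lowest of them. Their median log2 difference was -0.51, beside -0.08 for the 774 probes detected on both arrays. Of the 6, 1 was at least 2-fold lower, against 1.81% of the 774 probes, and the same 1 was the only one at least 1.5-fold lower, against 8.14%. All 6 were lower at every used spot position, as were 37.5% of the 774 probes. With ethanol the entries split: the 3 tRNA-linked entries and miR-5100 were lower than control, and miR-1973 and miR-1246 were slightly above it. The median was -0.27, beside 0.00 for the 347 probes detected on both arrays.

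miR-1973, the entry linked to mitochondrial rRNA, had deposited spot intensities of 2038, 2210, 2105 and 2100 with control. The ethanol spots were 2136, 2170, 1999 and 2006. The acetaldehyde spots were 786, 837, 806 and 992. The acetaldehyde spots were thus all below the lowest spot of the other arrays, whose own ranges overlapped. In normalized log2 levels the entry stood at 10.95 ± 0.05 (SD, n = 4 spots), 11.09 ± 0.06 and 9.76 ± 0.15 in the same order. It was 2.27-fold below control with acetaldehyde (log2 difference -1.18 ± 0.15 over 4 spot positions), with 5 of the 774 probes lower. Its value lay between -1.86 and -1.01 over all the alternative settings, so it stayed at least 2-fold lower under each of them. With ethanol it differed from control by 0.14 ± 0.07, and by -0.03 without normalization. From ethanol to acetaldehyde it differed by -1.32 ± 0.19, a fold of 2.50.

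With acetaldehyde, other entries thought to overlap mitochondrial RNA were nearer to control than miR-1973, and with ethanol 3 of them were farther from it. The list held 5 entries, among them miR-4284, miR-4463, miR-4484 and miR-4485, and was put together with earlier results of these data known. On the acetaldehyde and control arrays 4 of the 5 were detected, and their median was 0.15, between -0.04 and 0.20. None of the 4 was 1.5-fold lower or higher. miR-4485, which also resembles mitochondrial 16S rRNA, stood at 0.15 ± 0.14 with acetaldehyde and at 0.27 ± 0.25 with ethanol. With ethanol miR-4284 was the lowest of the list, at -0.56 ± 0.10, and miR-4463 the highest, at 0.31 ± 0.18, beside 0.14 for miR-1973.

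miR-1246, the entry linked to U2 snRNA, had spot intensities of 4475, 5328, 4461.4 and 4868 with control and of 4565, 4619, 4130 and 4589 with ethanol. The acetaldehyde spots were 2777, 2933, 2884 and 3778. The control and ethanol spots overlapped, and all acetaldehyde spots were lower than either, with the highest of them, 3778, standing apart from the other three. The log2 levels were 12.09 ± 0.12, 12.19 ± 0.08 and 11.61 ± 0.20. The difference from control was -0.49 ± 0.21 with acetaldehyde, 1.40-fold lower, and 0.10 ± 0.10 with ethanol. Without normalization the ethanol value was -0.09. Between the exposures the difference was -0.59 ± 0.19, lower with acetaldehyde.

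miR-1290, an entry often raised together with miR-1246 in tumour studies, is the array target closest to it. They are shown because they share a run of 12 bases, in capitals, so one probe may read the other's RNA.
miR-1246: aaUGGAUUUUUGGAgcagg
miR-1290: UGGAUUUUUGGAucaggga
RefSeq places miR-1290 at chr1:18897078-18897096 (minus strand). It was dim, at log2 levels of 7.54 on the control array and 6.69 on the acetaldehyde array, and it was not detected on the ethanol array. It stood at -0.84 ± 0.49 with acetaldehyde, the same side as miR-1246 and lower at all 4 spot positions, and at -0.59 without normalization.

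The entries linked to tRNA were miR-4454, miR-1260a and miR-1260b. miR-4454 had spot intensities of 11563, 11316, 10975 and 10728 on the control array. The used ethanol spots were 7462, 7379 and 6932, and the acetaldehyde spots 8761, 7897, 8157 and 8464. The 3 arrays did not overlap, with the ethanol array lowest and the control array highest. The log2 levels were 13.36 ± 0.05, 12.75 ± 0.06 (n = 3 spots) and 13.05 ± 0.06. The difference from control was -0.61 ± 0.02 with ethanol (SD over 3 positions), 1.52-fold lower, and -0.31 ± 0.07 with acetaldehyde. Between the exposures miR-4454 was 0.30 ± 0.08 higher with acetaldehyde, the only one of the 6 that was higher there.

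The ethanol value of miR-4454 ranked 10 from the lowest among 347 probes. It was the 1 entry at least 1.5-fold lower with ethanol, against 2.88% of those probes, and 0 of the 6 entries were at least 2-fold lower, against 0.0% of the probes. The call ended with cyclic loess (-0.36), with the arrays scaled to the median detected probe (-0.20), on the 5S probes (-0.41) and on the spike probes (-0.52). It also ended in the authors' deposited table (-0.39). With the dark spot kept the value was -1.06. Of the 6 entries, 4 were lower than control at every used spot position with ethanol, as were 31.1% of the probes.

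miR-1260b had spot intensities of 8279, 9328, 7392 and 7820 on the control array. The ethanol spots were 5793, 6575, 5704 and 5800, and the acetaldehyde spots 4486, 4180, 4758 and 4549. The arrays did not overlap, and the order was control, ethanol, acetaldehyde. In log2 levels this was 12.80 ± 0.14, 12.46 ± 0.10 and 12.27 ± 0.08. The entry was 1.26-fold below control with ethanol (-0.34 ± 0.07) and 1.44-fold below it with acetaldehyde (-0.53 ± 0.22). Over the alternative settings its ethanol value lay between -0.46, without normalization, and -0.04, with the arrays scaled to the median detected probe. Between the exposures miR-1260b differed by -0.19 ± 0.17, and by -0.40 without normalization.

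miR-1260a, its near-identical partner, had spot intensities of 783, 823, 663.6 and 707 on the control array. The used ethanol spots were 437, 495 and 498, and the acetaldehyde spots 436, 415, 495 and 460. The exposed arrays overlapped each other in these deposited intensities, and both lay below control. These intensities include background, and the empty spots had medians of 106, 148 and 65.8 on the control, ethanol and acetaldehyde arrays. Above the empty spots the used spots averaged 638, 328 and 386, so before normalization the ethanol array was lowest on that scale. The log2 levels were 9.31 ± 0.14, 9.03 ± 0.11 (n = 3 spots) and 8.76 ± 0.11. The difference was -0.28 ± 0.18 with ethanol (SD over 3 positions) and -0.55 ± 0.25 with acetaldehyde. The ethanol value of this dimmest of the 6 was -0.66 without normalization and -0.79 with the dark spot kept. The difference between the exposures was -0.28 ± 0.13 with normalization and -0.01 without it, so that order of the exposures rests on the normalization.

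The array targets miR-1229-3p and miR-6509-3p each share a run of 10 bases with miR-1260b, whose longest unbroken run shared with miR-1260a is 9. miR-1229-3p and miR-6509-3p were detected on the control and acetaldehyde arrays and not on the ethanol array. They lay on opposite sides of control with acetaldehyde, miR-1229-3p at 0.29 ± 0.23 and miR-6509-3p at -0.65 ± 0.28. miR-1229-3p was dim, at a log2 level of 7.20 on the control array, and its acetaldehyde value was 0.63 without normalization.

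Of the entries fixed beside them for tRNA, only the 2 arms of miR-3676 are on the array. These too were detected with control and acetaldehyde and not with ethanol. miR-3676-3p stood at 0.66 ± 0.16 with acetaldehyde and miR-3676-5p at -0.17 ± 0.25, beside -0.55 and -0.53 for the miR-1260 pair. The names fixed for vault or Y RNA matched no probe.

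miR-5100, for which no parent RNA is named here, had used spots of 3803, 3495 and 3354 on the control array. The ethanol spots were 2476, 2402, 2241 and 2498, and the acetaldehyde spots 2651, 2615, 2533 and 2744. The exposed arrays lay below control, with the ethanol spots below the acetaldehyde spots in these deposited intensities. In log2 levels it stood at 11.64 ± 0.09 (n = 3 spots), 11.36 ± 0.07 and 11.36 ± 0.05. It held the same rank on both exposed arrays, so quantile normalization gave it 1 value there. Its difference from control was thus -0.27 ± 0.12 for each, with the SD over 3 positions. With the dark control spot kept these values were 0.63 and 0.65, so the direction for miR-5100 rests on leaving that spot out.

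**Figure D2:**
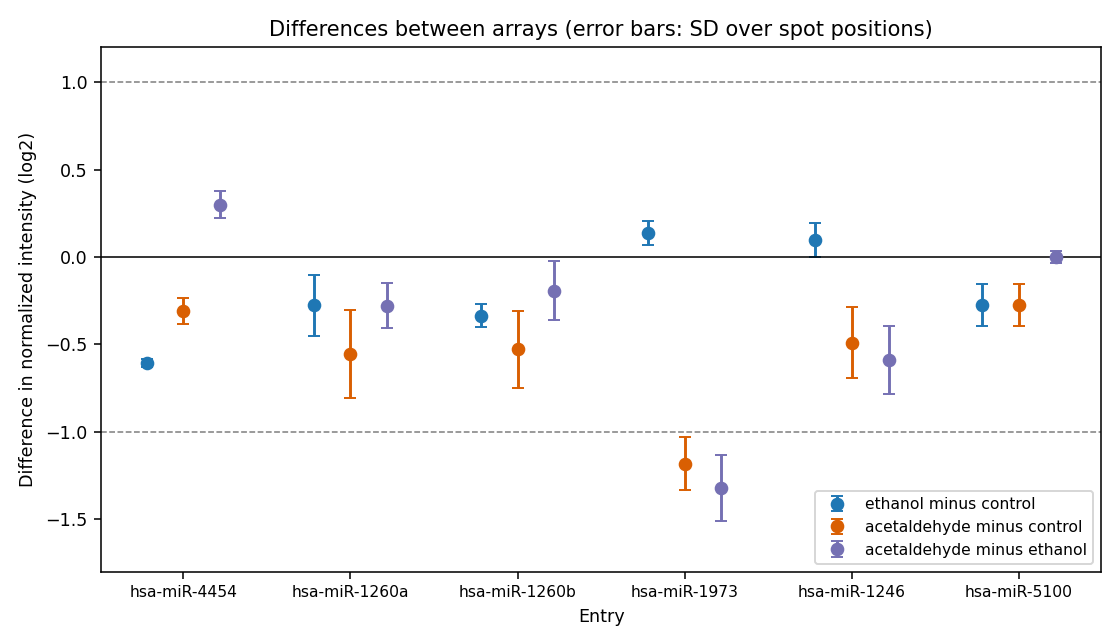
Log2 difference in normalized intensity of the 6 entries for ethanol minus control, acetaldehyde minus control and acetaldehyde minus ethanol; error bars are the SD over 3 or 4 spot positions of 1 array per group, and dashed lines mark 2-fold. miR-1973 lies past 2-fold lower in both comparisons that hold the acetaldehyde array, and miR-4454 is lower with ethanol than with acetaldehyde.

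Set side by side, the exposures ordered the entries differently. From ethanol to acetaldehyde the median difference of the 6 was -0.24, beside -0.11 for the 347 probes. Of the 6, 1 was at least 2-fold lower, against 4.03% of the probes, and 2 were at least 1.5-fold lower, miR-1973 and miR-1246, against 17.6%. At every spot position 4 were lower, the miR-1260 pair, miR-1973 and miR-1246, as were 46.4% of the probes. miR-4454 was higher, and miR-5100 differed by 0.00 ± 0.03, or by 0.15 without normalization. Whether the compound or its dose goes with these differences cannot be told apart.

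**Figure D3:**
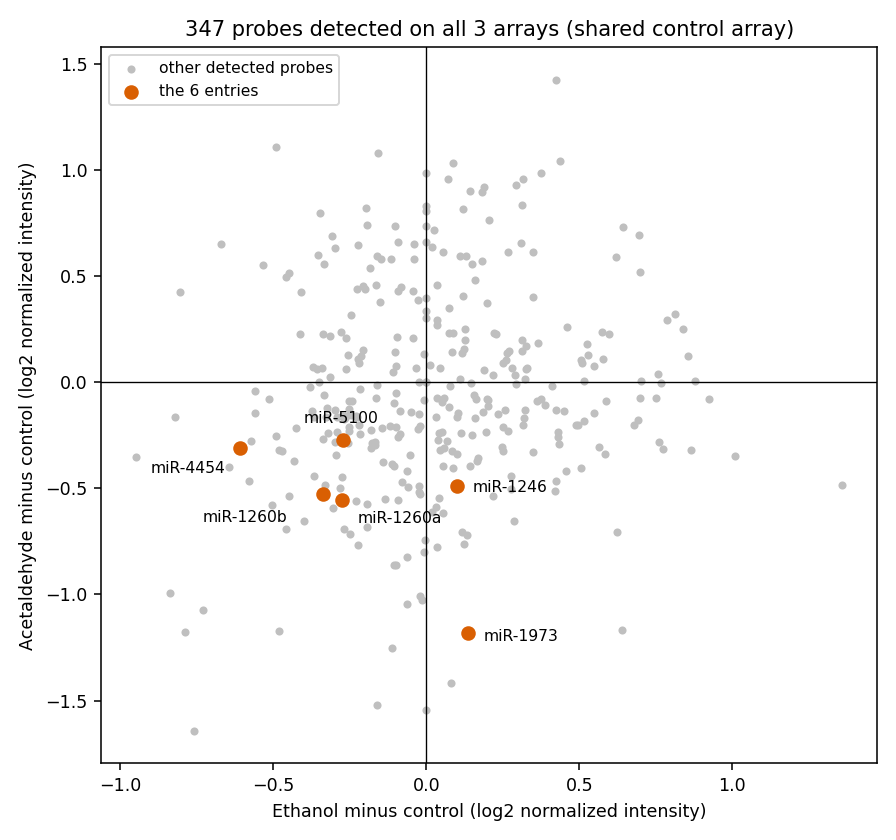
Log2 difference from control with ethanol (horizontal axis) and with acetaldehyde (vertical axis) for the 347 probes detected on all 3 arrays; both axes share the control array, and filled coloured points are the 6 entries. The miR-1260 pair lies together at about -0.3 and -0.5, miR-4454 lies farthest to the left of the 6, and miR-1973 and miR-1246 lie right of 0 and below it.

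The likeness of patterns was measured as the distance between the pairs of log2 differences (ethanol minus control, acetaldehyde minus control), over 3 arrays, with 246 other probes as candidates. Both differences share the control array. miR-1260a and miR-1260b lay 0.065 apart. The closest probes to miR-1973 were let-7d-5p at a distance of 0.22, let-7f-5p at 0.23 and let-7e-5p at 0.24, all mature members of the let-7 family. let-7d-5p stood at -0.02 with ethanol and -1.03 with acetaldehyde, and let-7e-5p at 0.08 and -1.42. The closest to miR-4454 was miR-3663-3p (0.048), to miR-1260a miR-4301 (0.046), to miR-1260b miR-466 (0.060), to miR-1246 let-7d-3p (0.10) and to miR-5100 miR-197-3p (0.021).

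Entries linked to other RNAs or to repeats spread to both sides of control. With acetaldehyde the snoRNA-linked entries had a median of -0.08 over 5 detected of 10 probes, with miR-3607-5p at 0.65 ± 0.17 and miR-664a-3p at -0.35 ± 0.14. The rRNA-linked entries had a median of -0.03 over 4 of 5, between miR-663b at 0.98 ± 0.27 and miR-663a at -0.31 ± 0.16. Of these, miR-663b and miR-664a-3p were dim, at log2 levels of 7.33 and 7.69 on the control array, and were not detected with ethanol. The entries within Alu repeats had a median of -0.28 over 8 of 17. They spread from miR-5095 at -0.77 ± 0.08 to miR-5096 at 1.42 ± 0.22, the highest of all 774 probes. With ethanol the medians were 0.08 over 4 for mitochondrial, 0.20 over 3 for snoRNA, 0.32 over 2 for rRNA and -0.22 over 3 for Alu entries. miR-663a was the highest of these at 0.57 ± 0.09, and with acetaldehyde it stood 0.87 ± 0.10 lower than with ethanol.

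The array also carried probes for 5S rRNA, a ribosomal RNA made by the same polymerase as tRNA, and spike calibration probes. Before normalization the 6 probes of 5S rRNA differed between acetaldehyde and control by a median of -0.16, from -0.26 to -0.12. On that scale the 6 entries differed by -1.29 to -0.42, below every 5S probe. With ethanol the 5S probes had a median of -0.21, from -0.35 to 0.38, and the entries lay between -0.66 and -0.03, so the ranges overlapped. The spike probes were brighter on the acetaldehyde array, with a median of 0.60, and 41 of 43 were above the control array. Before normalization the median of all 2019 probes, detected or not, differed from control by 0.31 with acetaldehyde and by -0.13 with ethanol. Over the probes detected on both arrays, the median difference was 0.07 with acetaldehyde (774 probes) and -0.33 with ethanol (347 probes). The part of these shifts in the members' values was not tested beyond the scalings named here.

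Scaled on the 5S probes, miR-1973 stood at -1.12 with acetaldehyde, miR-1260b at -0.69, miR-1260a at -0.50, miR-1246 at -0.46, and miR-4454 and miR-5100 at -0.25. Scaled on the spike probes all 6 lay further down, from -1.86 for miR-1973 to -0.99 for miR-4454 and miR-5100. With the arrays scaled to the median detected probe the acetaldehyde values ran from -1.01 for miR-1973 to -0.14 for miR-4454 and miR-5100. With acetaldehyde the 6 entries thus kept their direction under every scaling, though these last 2 came near to control. Between the exposures miR-4454 turned from 0.30 to -0.47 with the spike probes, and with ethanol the values of miR-1973 and miR-1246 changed sign without normalization. Those ethanol values moved the other way, to 0.39 and 0.32, with the arrays scaled to the median detected probe, and to 0.34 and 0.21 with cyclic loess. In the authors' deposited table they were 0.44 and 0.23.

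In the authors' deposited table, whose normalization method is not given in these sources, the intensities of miR-1973 were 1657, 2250 and 811 for control, ethanol and acetaldehyde. For miR-1246 the authors' deposited table gives 4058, 4766 and 3033, and for miR-4454 10418, 7937 and 7975.5. For miR-1260b the authors' deposited table gives 7341, 6385 and 4336, for miR-1260a 547, 465 and 346, and for miR-5100 2890, 2594 and 2660. The order of control, ethanol and acetaldehyde for the miR-1260 pair was the same there as above. The log2 ratio of acetaldehyde to control in the authors' deposited table ran from -1.03 for miR-1973 to -0.12 for miR-5100. With ethanol miR-1973 stood 0.44 above control in the authors' deposited table, against 0.14 here, and miR-4454 did not differ between the exposures (0.01).

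**Figure D4:**
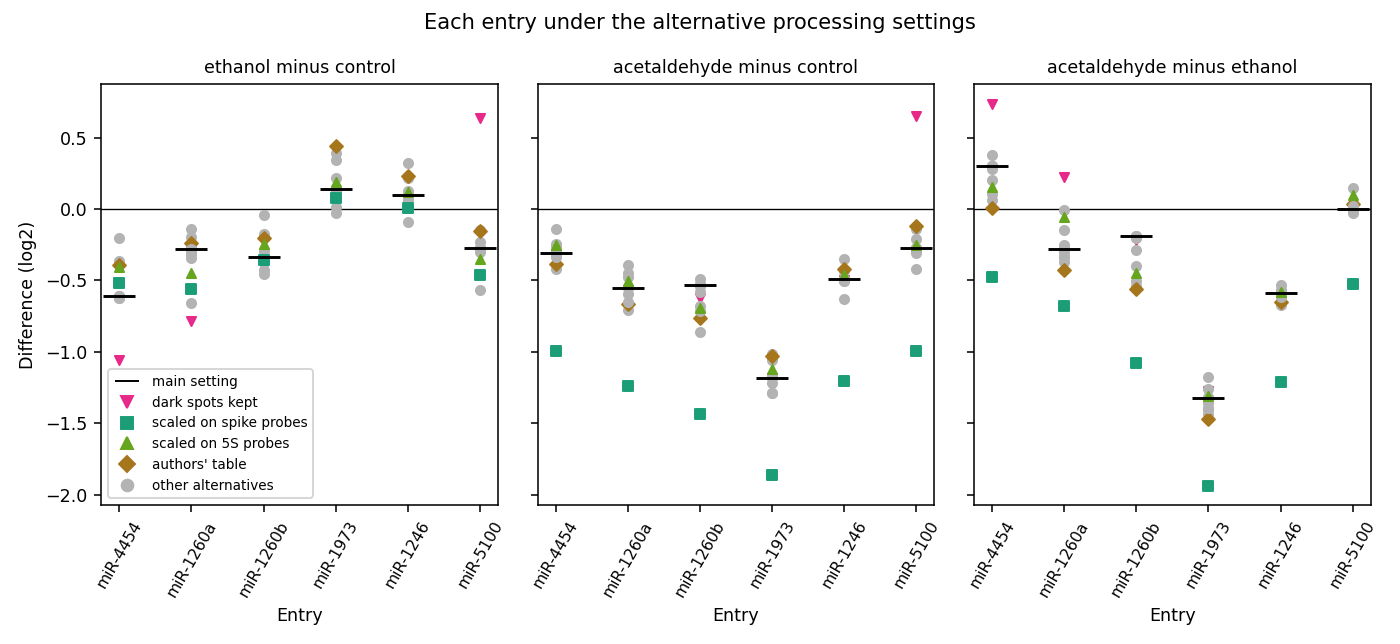
Log2 difference of each entry under the main processing (black bars) and under the alternatives (points), for the 3 comparisons between arrays. Keeping the dark spots moves miR-5100 from -0.27 to 0.63 and 0.65 against control, and scaling on the spike probes lowers all 6 entries on the acetaldehyde array.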

How the data were processed

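Total RNA (2 µg per assay) was poly(A) tailed, tagged and stained with Cy5 by a commercial array service, per the labels' protocols. The per-array files hold deposited spot median intensities, not normalized, per the file headers, which list no background column. The series table holds the authors' normalized linear intensities, and their method is not given in these sources. It was used as log2(value + 1), except for the ratios quoted as the authors'.

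Background was corrected with normexp (offset 50, fitted on all spots) in limma 3.58.1 under R 4.3.3. Dark spots were left out for all probes with a median signal over 300. The spots of a probe were averaged in log2, and the arrays were quantile normalized over 2019 probes. Python 3.11.15, pandas 2.3.3, NumPy 2.4.6 and matplotlib 3.10.9 did the rest. The pipeline was tested on simulated data, and no value above rests on that test. All simulated arrays had the background of the control array, and no dark spots were simulated. That test thus did not cover dark spots or the differences in background between the real arrays. The number of arrays, 1 per group, limits the precision, and differences were described by size beside all probes detected on both arrays.

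The 6 entries and the lists were chosen with earlier results of these data known. Named besides the entries were the 3 probes of closest pattern with an intensity of at least 500 on 1 array, of which the text prints a part, and up to 3 members per list and comparison with the largest difference, likewise. In all 11 planned and 2 added alternatives were run. The latter, scaling on 5S and on spike probes, were chosen after seeing the data.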

Additional observations from a re-analysis of the deposited data

How the results depend on the processing

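With acetaldehyde the median of the 6 entries kept its direction under all 13 alternatives, and so did the medians of the other comparisons. One of these alternatives, dropping the detection filter, could not change the medians, because all 6 entries were detected on every array. No paired analysis was possible because each group is 1 array. The ethanol median moved from -0.27 to -0.16 with dark spots kept and to -0.51 without normalization. Without normalization the 347 probes detected on both arrays had a median of -0.33, against 0.00 in the main setting. The ethanol median of the 6 entries was -0.10 with scaling on the median of detected probes and -0.41 with scaling on spike probes. With scaling on spike probes the acetaldehyde median was -1.22, and that between the exposures -0.88 (-0.49 in the authors' deposited table).

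Counts of entries are given with the share of all probes past the same fold. With spike scaling 4 entries were at least 2-fold lower with acetaldehyde than with control (14.3% of probes, against 1.81%) and 3 lower than with ethanol (20.7%, against 4.03%). The count for acetaldehyde against control was 1 with empty-spot subtraction (18.9%) and in the authors' table (8.91%). With dark spots kept 1 entry was 2-fold lower with ethanol (0.288%). The ethanol count at 1.5-fold, 1 (2.88%), became 2 with dark spots kept (3.46%) or without normalization (23.1%). It became 0 with median scaling (2.02%), cyclic loess (2.88%), the authors' table (3.75%), 5S scaling (6.34%) or spike scaling (13.5%). The acetaldehyde count at 1.5-fold, 1 (8.14%), became 2 with dark spots kept (8.14%), cyclic loess (8.53%), empty-spot subtraction (28.3%), offset 16 (13.6%) or 5S scaling (3.75%). It became 3 in the authors' table (19.4%) or the first block of spots (9.43%), 4 without normalization (6.07%) and 6 with spike scaling (44.1%). Between the exposures that count, 2 (17.6%), became 1 without normalization (11.8%), with the second block (17.9%) or 5S scaling (12.7%), and 4 with spike scaling (41.8%). With dark spots kept, miR-1260a between the exposures turned from -0.28 to 0.22. Apart from the dark spots, the cause of these moves was not tested. miR-1260a on the ethanol array, nearest its detection level, is the value most limited by signal over background.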
